A study of Mus musculus with 18 samples.

Results

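The 43 genes described here belong to 1 cellular task, keeping peroxides, lipid radicals and free iron in check. They comprise NRF2 (Nfe2l2) and its repressor Keap1, enzymes and transporters that NRF2 can induce, the glutathione and thioredoxin systems, genes that set how readily membrane lipids oxidise, iron carriers, 2 mitochondrial porins and 2 metallothioneins. They were taken as a list of names, with no threshold on any value, but the list was chosen with earlier results of these data known. Counts and medians of the 43 set beside those of all genes are therefore a description. Of 43629 gene IDs in the count table, 43 carried these symbols, and 43 of the 43 were among the 15671 genes with enough counts to be tested.

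The libraries are bulk, poly(A)-enriched RNA of mouse cortical cultures that the labels call neuronal, infected with a lentivirus at day 7 in vitro and collected 10 days afterwards. In 6 Psmb5 libraries the virus carried Psmb5, the catalytic subunit of the standard proteasome that gives it chymotrypsin-like activity. In 6 Psmb8 libraries it carried Psmb8, which replaces Psmb5 in the interferon-inducible immunoproteasome. In 6 mSc libraries it carried mScarlet, a red fluorescent protein, as the control, so that every group was transduced and no untransduced culture was compared. Mouse strain, age and the promoter of the constructs were not given in the sources used here. A treatment text attached to every sample names an Ifng construct, against the treatment tags that set the groups. Libraries are numbered 1 to 6 in each group; the meaning of a number is not stated, nor whether replicates were separate dissections, so p-values measure the spread among these libraries, which may be technical.

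Library totals were 16055974 to 19640543 counts in Psmb5, 16091906 to 18630396 in Psmb8 and 15337511 to 21074229 in mSc cultures, so that 1 CPM (a count scaled to library size) stands for about 15 to 21 counts. The transgenes matched the group tags: Psmb5 had 238 to 561 CPM in Psmb5, 45.8 to 51.1 in Psmb8 and 41 to 45.1 in mSc libraries, and Psmb8 had 546 to 1060 CPM in Psmb8, 0.488 to 14.6 in Psmb5 and 0.84 to 19.4 in mSc libraries. Among markers of the cell types the cultures could hold, 6 of 6 neuronal genes were tested, with a summed level of 2980 to 3730 CPM over the 18 libraries. Astrocyte markers, 12 of 12 tested, summed to 4580 CPM in Psmb5, 4640 in Psmb8 and 5440 in mSc library 1, and to 1500 to 2120 in the other 15 libraries. Of 12 microglia and macrophage markers 3 were tested, and the defining genes Cx3cr1, P2ry12, Tmem119, Csf1r and C1qa had at most 9 counts in any library. In bulk RNA, fewer cells of a type and less RNA per cell cannot be told apart.

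NRF2 is a transcription factor that KEAP1 hands to a ubiquitin ligase for destruction by the proteasome; oxidants and electrophiles block that step, and NRF2 then switches on genes through antioxidant response elements. Among its targets are the cystine importer and the enzymes that make glutathione, the thiol that GPX4 uses to reduce lipid peroxides and so to hold off ferroptosis, an iron-dependent form of cell death. In the brain, astrocytes are known for higher NRF2 activity than neurons and supply neurons with glutathione precursors, while ferritin, transferrin receptor and ferroportin set how much iron is free to react.

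Per kilobase of exon, the ferritin chains stood highest in mSc cultures. Ftl1, the light chain, had 651 CPM per kb and Fth1, the heavy chain that oxidises iron for storage, 375. They were followed by Gstm1, a glutathione transferase abundant in astrocytes, at 284 CPM per kb, and by the metal-binding metallothioneins Mt1 at 138 and Mt2 at 135. Gpx4 stood at 89.2 CPM per kb and ranked 7 of 43. The lowest levels belonged to Nqo1, a quinone reductase often used to read out NRF2 activity, at 2.23 CPM per kb, and to Slc40a1, the iron exporter ferroportin, at 0.216. Exon lengths are those of GENCODE's GRCm38 annotation, and exons of 13 of the 43 genes overlapped another gene there. In Mt2 the overlapped part was 73.5%, by the antisense gene Gm45774, and in Ftl1 34.6%, by Gm10252 among others.

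**Figure D1:**
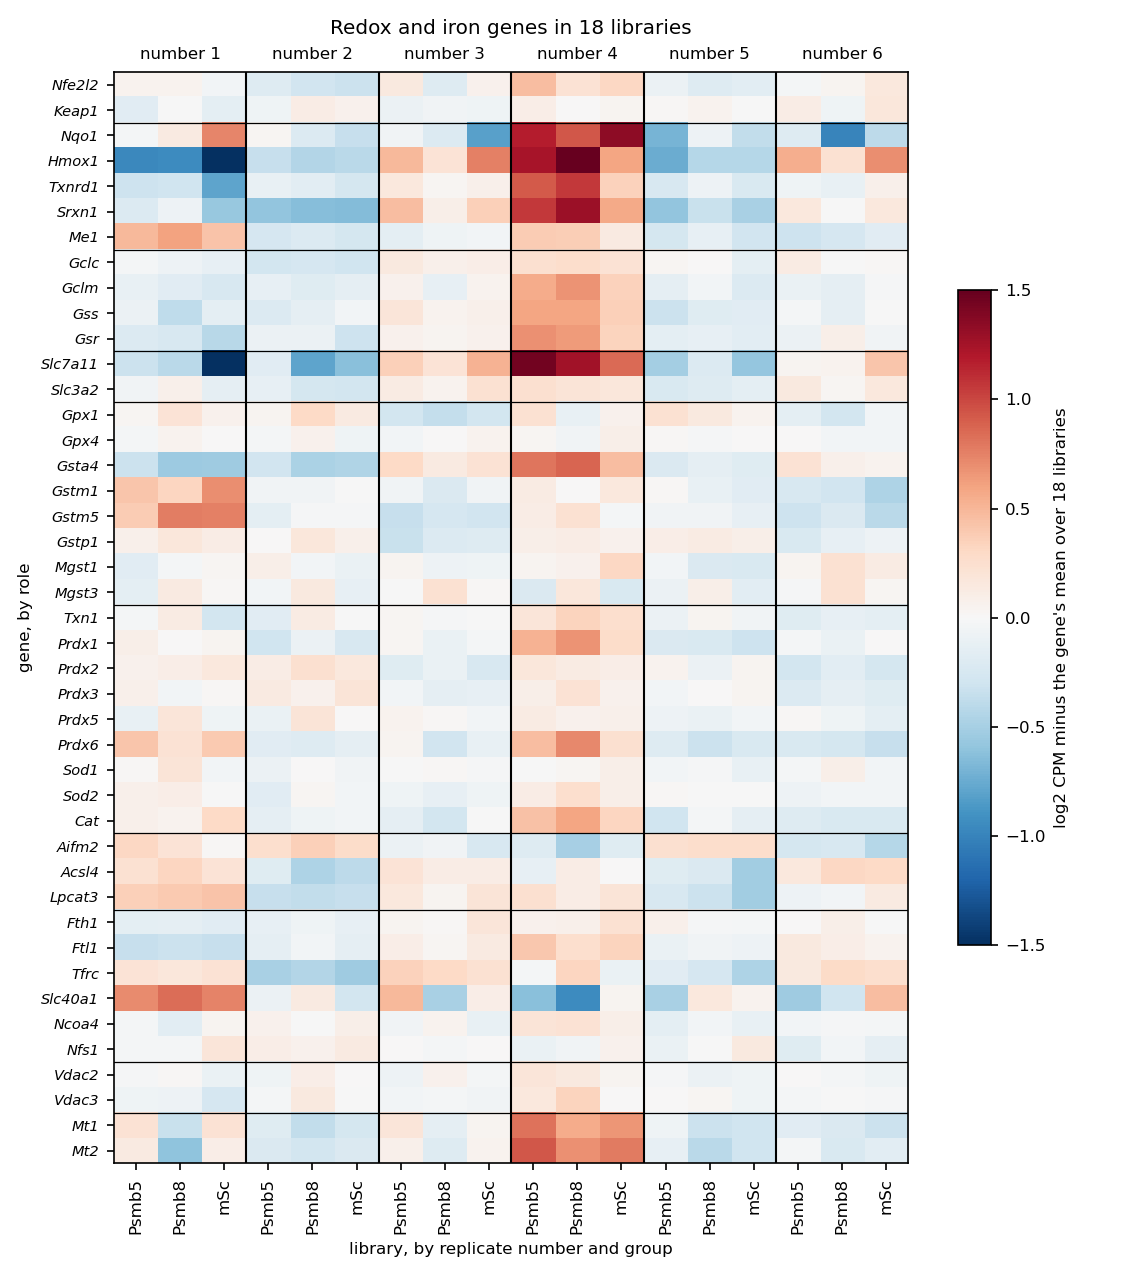
Level of each of the 43 genes (rows, grouped by role, horizontal lines between roles) in each of the 18 libraries (columns, ordered by replicate number and then Psmb5, Psmb8 and mSc), as log2 CPM minus the gene's own mean, cut at 1.5 in either direction. The 3 libraries numbered 4 form the warmest block, with Slc7a11 at 346, 304 and 229 CPM in Psmb5, Psmb8 and mSc cultures.

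Psmb5 against mSc cultures asked what more of the standard catalytic subunit does to these genes. None of the 43 was called: 0 of 43 passed an adjusted p of 0.05 in edgeR's quasi-likelihood test, and 1 gene of all those tested did (0.00638%), Psmb5 itself. Replicate numbers pair the libraries, because same-numbered libraries of different groups deviate together, and a fit with the number as a block is therefore the finer test here. It also called 0 of the 43 and 1 of all genes (0.00638%), with a smallest adjusted p among the 43 of 0.62; at an unadjusted p under 0.05 it held 6 of the 43, against 6.87% of all genes.

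NRF2 and its repressor were not called. Nfe2l2 had a lowest, median and highest value of 22.1, 25.6 and 35 CPM in Psmb5 and 20.3, 25.5 and 31.5 in mSc libraries. Keap1 had 56.2, 62.3 and 68.7 CPM in Psmb5 and 57.3, 64.1 and 71.2 in mSc libraries. Their log2 fold changes in the blocked fit were 0.06 and -0.03, no larger than their SEs of 0.06 and 0.05.

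No gene of glutathione supply passed the test. Slc7a11, the cystine-importing subunit of system xc-, ranged over 89.2, 122 and 346 CPM in Psmb5 and 43.8, 127 and 229 in mSc libraries, a log2 fold change of 0.26 whose SE of 0.14 and adjusted p of 0.76 in edgeR's blocked fit leave it uncalled. Gclc, the catalytic subunit of the enzyme that commits cysteine to glutathione, had 59.3, 75.7 and 84.3 CPM in Psmb5 and 58, 69.1 and 82.9 in mSc libraries and was higher in 6 of 6 pairs, by 0.08 on the log2 scale (SE 0.03, adjusted p = 0.67 in edgeR's blocked fit). Gclm, its modifier subunit, had 71, 72.8 and 115 CPM in Psmb5 and 66.1, 74.2 and 99.6 in mSc libraries. The ranges of each of these genes overlapped between the groups.

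Gsr, which reduces oxidised glutathione, had 32.6, 35.3 and 60.1 CPM in Psmb5 and 28.2, 34.9 and 47.4 in mSc libraries (log2 fold change 0.12, SE 0.05, adjusted p = 0.65 in edgeR's blocked fit). Txnrd1, thioredoxin reductase, had 125, 146 and 294 CPM in Psmb5 and 89.5, 148 and 197 in mSc libraries (0.18, SE 0.08, adjusted p = 0.68 in edgeR's blocked fit). Gsta4, a transferase that clears aldehydes from oxidised lipids, had 30.7, 38.8 and 66.5 CPM in Psmb5 and 26.4, 36.7 and 52.7 in mSc libraries (0.16, SE 0.06, adjusted p = 0.62 in edgeR's blocked fit). In these 3 genes the highest value of each group was its library 4, and with all libraries numbered 4 left out of the blocked fit the log2 fold changes of Gsr, Txnrd1 and Gsta4 were 0.075, 0.104 and 0.117. With Psmb5 library 4 alone left out, mSc library 4 kept and no block, they were -0.025, -0.014 and -0.009.

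The classic read-outs and the ferroptosis and iron genes were not called either. Hmox1, which breaks down heme and releases its iron, had 54.6, 116 and 251 CPM in Psmb5 and 34.8, 120 and 180 in mSc libraries (log2 fold change 0.06, SE 0.13). Nqo1 had 1.81, 2.85 and 6.63 CPM in Psmb5 and 1.67, 2.29 and 7.44 in mSc libraries (-0.04, SE 0.17). Each was higher in 3 of 6 pairs.

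Gpx4 had 148, 152 and 156 CPM in Psmb5 and 146, 153 and 162 in mSc libraries, a log2 fold change of -0.01 (SE 0.04). Acsl4, which loads membranes with oxidisable fatty acids, had 182, 209 and 241 CPM in Psmb5 and 144, 215 and 253 in mSc libraries (0.07, SE 0.06). Aifm2 (FSP1), a suppressor of ferroptosis that works apart from GPX4, had 9.42, 11.9 and 14 CPM in Psmb5 and 8.37, 10.7 and 13.7 in mSc libraries (0.08, SE 0.07). Their ranges overlapped, as did those of the iron genes: Fth1 had 1160, 1300 and 1350 CPM in Psmb5 and 1140, 1270 and 1500 in mSc libraries, and Tfrc, the transferrin receptor that brings iron in, 61.2, 89.1 and 109 in Psmb5 and 59.2, 89.5 and 102 in mSc libraries.

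Mt1, a metallothionein, had 147, 175 and 293 CPM in Psmb5 and 133, 155 and 263 in mSc libraries (log2 fold change 0.13, SE 0.06, adjusted p = 0.68 in edgeR's blocked fit). Nfs1, the cysteine desulfurase that starts iron-sulfur clusters, was lower in 6 of 6 pairs, with 24.1, 26.2 and 29.2 CPM in Psmb5 and 24.9, 29.2 and 31 in mSc libraries; its log2 fold change of -0.12 (SE 0.05) missed the threshold (adjusted p = 0.65 in edgeR's blocked fit). Gclc and Mt2 were the 2 genes higher in 6 of 6 pairs, where 2.04% of all genes were, and Nfs1 was the 1 gene lower in 6 of 6, where 2.2% were. For Mt2 the difference in number 2 rounded to 0, with 64.2 CPM in the Psmb5 and 64.1 in the mSc library. None of the 43 separated the groups without overlap (0.0319% of all genes did). Over the 43 genes the median log2 fold change was 0.022 without and 0.017 with the block, beside 0.001 and 0.002 over all genes.

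Psmb8 against mSc cultures asked the same of the immunoproteasome subunit. Mgst3, a membrane-bound glutathione transferase that can also reduce lipid hydroperoxides, was the single gene of the 43 to be called, and it was called with replicate numbers blocked and not without. Mgst3 (ENSMUSG00000026688, chr1:167371966-167393841, minus strand, GRCm38, exons overlapping no other annotated gene) had 86.9, 87.6, 92.6, 89, 84.3 and 92.7 CPM in Psmb8 libraries 1 to 6 and 80.2, 72.5, 79.9, 67.5, 70.9 and 81.1 in mSc libraries 1 to 6. Every Psmb8 library lay above every mSc library. In the blocked fit it was 18.1% higher, or 0.24 in log2 fold change (SE 0.04, edgeR's adjusted p = 0.0057), and within the 6 pairs the difference in log2 CPM ran from 0.12 to 0.40. Without the block the fold change was the same, 0.24 (SE 0.05), and the adjusted p in edgeR was 1, where the share of all genes called was 0.00638%. With the block, 0.115% of all genes were called higher, 18 genes, and 33 were called lower.

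That call is near the threshold. In edgeR's blocked fit without the libraries numbered 3 the adjusted p was 0.051, and without numbers 3 and 6 it was 0.17, while the log2 fold change stayed between 0.208 and 0.264 when any 1 number was left out. Numbers 3 and 6 are those in which Psmb8 itself was higher without its transgene. It had 12.2 and 19.4 CPM in those mSc libraries, against 0.84 to 2.59 in the other mSc libraries. In Psmb5 libraries it had 8.37 and 14.6 CPM, against 0.488 to 3.1 in the others.

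**Figure D2:**
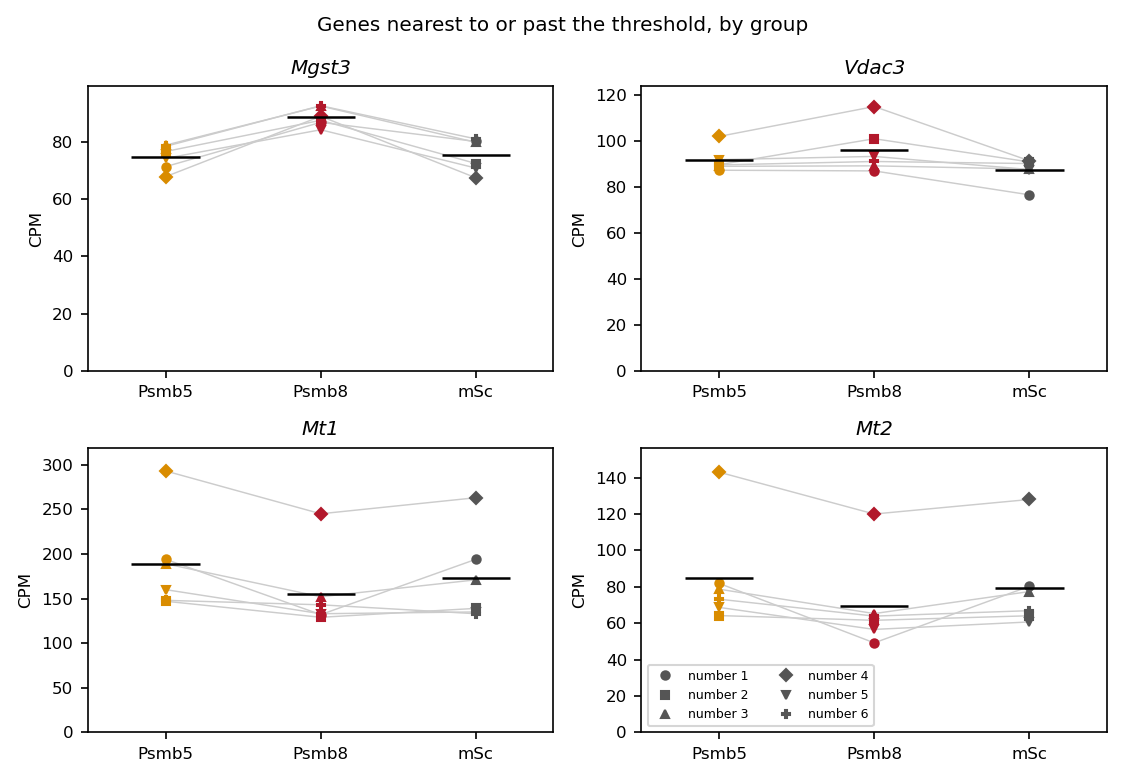
CPM of Mgst3, Vdac3, Mt1 and Mt2 in the 6 libraries of Psmb5, Psmb8 and mSc cultures, with a symbol per replicate number, grey lines joining libraries of the same number and black bars at the group means. All 6 Mgst3 values of Psmb8 cultures lie above those of both other groups, while for Mt1 and Mt2 the libraries numbered 4 stand highest in each group.

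Vdac3, a porin of the outer mitochondrial membrane, had 87, 92.2 and 115 CPM in Psmb8 and 76.6, 89 and 91.4 in mSc libraries. It was higher in 6 of 6 pairs, at a log2 fold change of 0.13 (SE 0.04), and missed the threshold (adjusted p = 0.20 in edgeR's blocked fit). Vdac2, its relative, had 98.2, 108 and 116 CPM in Psmb8 and 97.3, 101 and 107 in mSc libraries. The porins overlapped between the groups, and reads of Vdac3 could be shared with the pseudogene Vdac3-ps1, which held 1.53% as many counts.

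The metallothioneins, cysteine-rich proteins that bind zinc and copper and are induced by metals and glucocorticoids, were not called. Mt2 (ENSMUSG00000031762, chr8:94172664-94173568, plus strand, GRCm38) had 49.2, 62.7 and 120 CPM in Psmb8 and 60.7, 72.1 and 128 in mSc libraries and was lower in 6 of 6 pairs, its log2 fold change being -0.20 (SE 0.06, adjusted p = 0.20 in edgeR's blocked fit). Mt1 (ENSMUSG00000031765, chr8:94179082-94180327, plus strand) had 129, 138 and 245 CPM in Psmb8 and 133, 155 and 263 in mSc libraries and was lower in 5 of 6 pairs (-0.14, SE 0.06, adjusted p = 0.36 in edgeR's blocked fit). The widest pair difference came from number 1, where Mt2 had 49.2 CPM in the Psmb8 library and 80.3 in the mSc library. In the blocked fit without number 1 the log2 fold changes were -0.114 for Mt2 and -0.058 for Mt1.

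NRF2, KEAP1 and the standard read-out genes of the pathway were not called. Nfe2l2 had 20.7, 24.1 and 29.4 CPM in Psmb8 libraries (log2 fold change -0.07, SE 0.06) and Keap1 60.7, 63.4 and 68.5 (0, SE 0.05), against the mSc values above. Hmox1 had 55.4, 101 and 312 CPM in Psmb8 and 34.8, 120 and 180 in mSc libraries (0.07, SE 0.14). Nqo1 had 1.47, 2.66 and 5.59 CPM in Psmb8 and 1.67, 2.29 and 7.44 in mSc libraries (-0.14, SE 0.17). These 4 overlapped between the groups, and the pairs were split: Hmox1 was higher in 2 of 6 and Nqo1 in 3 of 6.

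Txnrd1 had 126, 146 and 323 CPM in Psmb8 libraries (log2 fold change 0.20, SE 0.08, adjusted p = 0.36 in edgeR's blocked fit) and Gsr 31.7, 36.9 and 58.5 (0.14, SE 0.05, adjusted p = 0.30 in edgeR's blocked fit). With all libraries numbered 4 left out of the blocked fit, the log2 fold change of Txnrd1 was 0.094; with Psmb8 library 4 alone left out, mSc library 4 kept and no block, it was -0.03. Slc7a11 had 73, 120 and 304 CPM (0.13, SE 0.14), Gclc 60, 71.5 and 85.8 (0.04, SE 0.03) and Gclm 69.1, 71.5 and 125 (0.04, SE 0.05) in Psmb8 libraries. Each of these 5 ranges overlapped that of mSc cultures.

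No gene of ferroptosis or iron handling was called. Gpx4 had 147, 152 and 160 CPM in Psmb8 and 146, 153 and 162 in mSc libraries, with a log2 fold change of -0.01 (SE 0.04). Acsl4 had 150, 223 and 257 CPM in Psmb8 and 144, 215 and 253 in mSc libraries. Aifm2 had 7.96, 12 and 14.4 CPM in Psmb8 and 8.37, 10.7 and 13.7 in mSc libraries. Fth1 had 1170, 1280 and 1360 CPM in Psmb8 and 1140, 1270 and 1500 in mSc libraries, and Tfrc 63.2, 100 and 107 in Psmb8 and 59.2, 89.5 and 102 in mSc libraries. No adjusted p in these roles fell below that of Tfrc, 0.37 in edgeR's blocked fit (log2 fold change 0.13, SE 0.05).

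The remaining genes were likewise uncalled in this comparison. They are the NRF2-inducible Srxn1 and Me1, the glutathione synthetase Gss, the system xc- partner Slc3a2, the peroxidase Gpx1, the transferases Gstm1, Gstm5, Gstp1 and Mgst1, the thioredoxin Txn1, the peroxiredoxins Prdx1, Prdx2, Prdx3, Prdx5 and Prdx6, the superoxide dismutases Sod1 and Sod2, catalase (Cat), the phospholipid-remodelling enzyme Lpcat3 and the iron-storage genes Ftl1 and Ncoa4, of which Ncoa4 is the receptor that sends ferritin for breakdown. Gsta4, Slc40a1 and Nfs1 were uncalled too. Slc40a1 had the widest error, with a log2 fold change of -0.25 and an SE of 0.20 at a mean of 1.68 CPM in Psmb8 and 1.94 in mSc cultures.

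Mgst3 and Vdac3 were the 2 genes higher in 6 of 6 pairs (3.18% of all genes) and Mt2 the 1 lower in 6 of 6 (2.5%). Mgst3 alone separated the groups, where 0.121% of all genes did. Over the 43 genes the median log2 fold change was 0.04 without and 0.031 with the block, beside 0 and 0.001 over all genes, and 9 of the 43 had an unadjusted p under 0.05 in the blocked fit, against 10.7% of all genes.

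**Figure D3:**
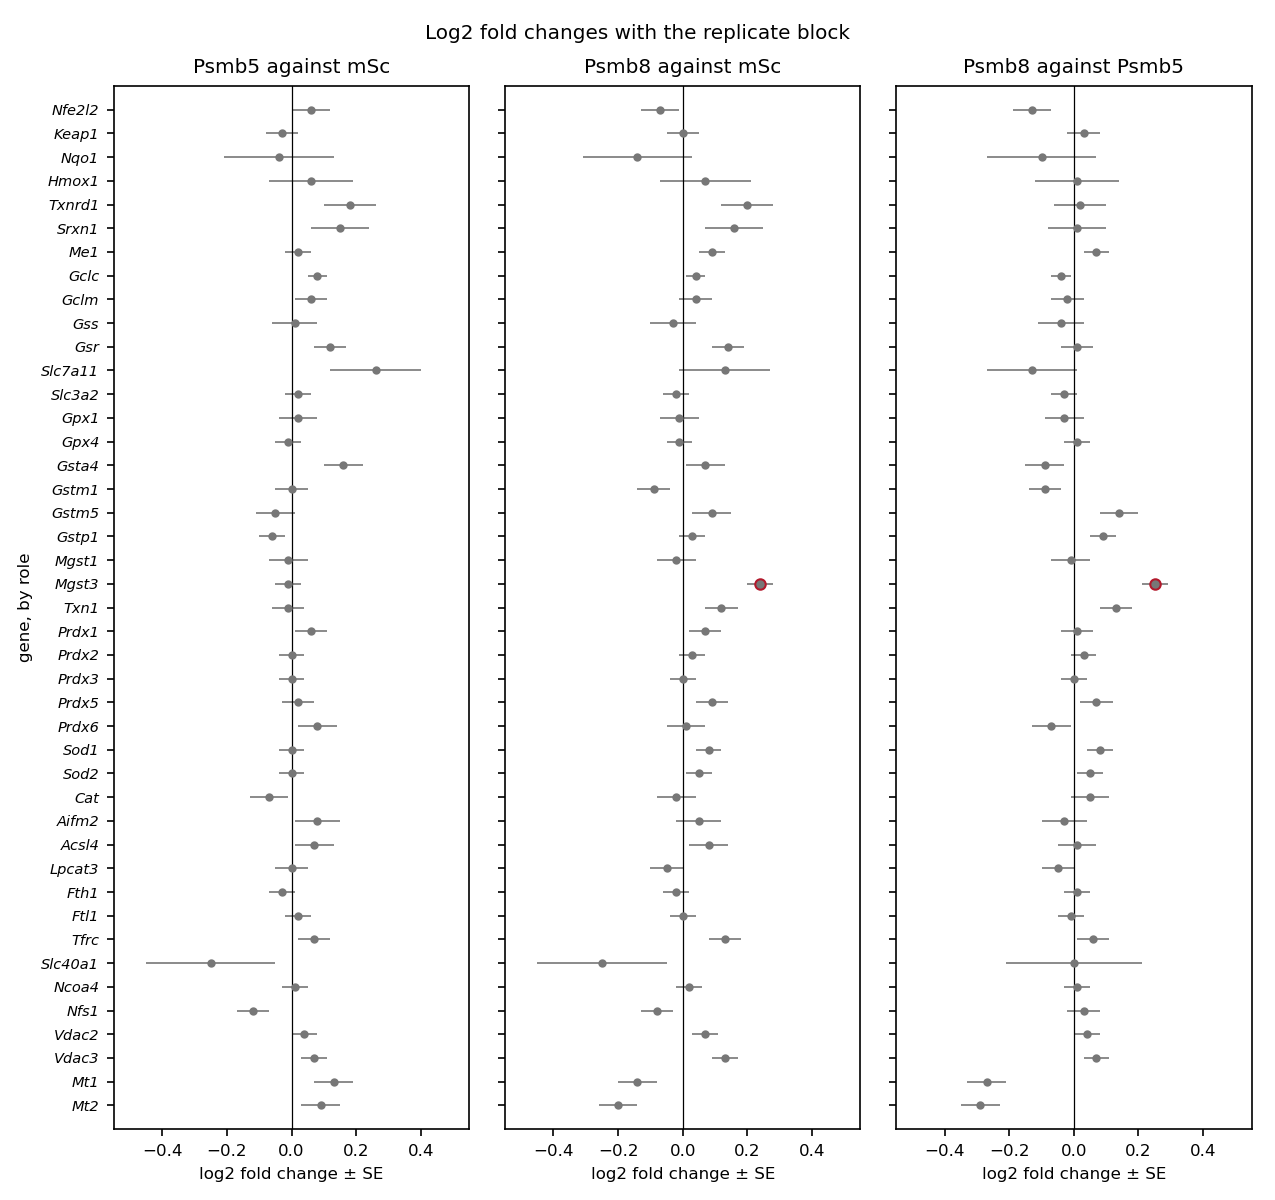
Log2 fold change of each of the 43 genes, by role, with its SE, from the blocked edgeR fit, for Psmb5 against mSc, Psmb8 against mSc and Psmb8 against Psmb5. Mgst3, circled in red, is the 1 gene past an adjusted p of 0.05, at 0.24 and 0.25 in both Psmb8 panels, and Mt1 and Mt2 lie lowest in the Psmb8 against Psmb5 panel at -0.27 and -0.29.

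Psmb8 against Psmb5 cultures set the subunits against each other, with an overexpressed proteasome subunit on either side. The 2 comparisons with Psmb8 share its libraries, so the repeat of a direction is no independent support. Mgst3 had 71.4, 76.7, 78.9, 67.9, 74.3 and 78.5 CPM in Psmb5 libraries 1 to 6, all below the 6 Psmb8 libraries given above. It was 19.2% higher in Psmb8 than in Psmb5 cultures, or 0.25 in log2 fold change (SE 0.04; edgeR's adjusted p = 0.0075 with the block and 0.86 without it), while its log2 fold change between Psmb5 and mSc cultures was -0.01 (SE 0.04). With the block, 0.0128% of all genes were called higher, 2 genes, and without it 0.0128% were called in either direction. In edgeR's blocked fit without numbers 3, 6 or both, the adjusted p was 0.058, 0.055 and 0.32.

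The metallothioneins Mt1 and Mt2 showed the largest negative fold changes of the 43. Mt1 had 129, 138 and 245 CPM in Psmb8 and 147, 175 and 293 in Psmb5 libraries, and Mt2 49.2, 62.7 and 120 in Psmb8 and 64.2, 75.9 and 143 in Psmb5 libraries. Both were lower in 6 of 6 pairs, with log2 fold changes of -0.27 (SE 0.06, adjusted p = 0.092 in edgeR's blocked fit) and -0.29 (SE 0.06, adjusted p = 0.11 in edgeR's blocked fit), and neither was called. DESeq2 with the same block, an alternative chosen after seeing the data, called them, with adjusted p of 0.0041 for Mt1 and 0.0068 for Mt2. Among other such alternatives, limma-voom called neither. EdgeR's block called Mt1 on the 12 libraries of these groups, and both genes with no low-count filter. With 1 number left out of edgeR's blocked fit, adjusted p ran from 0.064 to 0.36 for Mt1 and from 0.085 to 0.34 for Mt2. Against mSc, these genes lay slightly higher in Psmb5 cultures, with log2 fold changes of 0.13 (SE 0.06) for Mt1 and 0.09 (SE 0.06) for Mt2. Mt3, a metallothionein outside the 43, did not share the difference between Psmb8 and Psmb5 cultures. Its log2 fold change was 0 (SE 0.06), and it was higher in 3 of 6 pairs. Slc30a1, a zinc exporter that responds to the same metal sensor as Mt1 and Mt2, differed by 0.08 (SE 0.04) between Psmb8 and Psmb5 cultures and was not called. Of the astrocyte markers, whose cells also express metallothioneins, 1 of 12 lay above 0 in this comparison, where 49.9% of all genes did. Their median log2 fold change was -0.09. Other lists leaned the same way: 0 of 9 oligodendrocyte markers (median -0.08) and 0 of 5 cycling markers (median -0.15) lay above 0. Of the neuronal markers 3 of 6 did (median 0). No marker was called, and the part of any cell type in the metallothionein values was not tested.

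After Mgst3 and the metallothioneins, Txn1, Gstm5 and Gstp1 had the smallest p of the 43 and were not called. Txn1, the thioredoxin that hands electrons to peroxiredoxins, had 62.3, 72 and 85.7 CPM in Psmb8 and 59.7, 65.2 and 76.9 in Psmb5 libraries (log2 fold change 0.13, SE 0.05, adjusted p = 0.54 in edgeR's blocked fit). Gstm5 had 28.6, 33.3 and 58 CPM in Psmb8 and 26.8, 31.7 and 44.4 in Psmb5 libraries (0.14, SE 0.06, adjusted p = 0.56 in edgeR's blocked fit). Gstp1, a transferase of the pi class, had 43.8, 54.7 and 56.6 CPM in Psmb8 and 40, 51.9 and 54.1 in Psmb5 libraries (0.09, SE 0.04, adjusted p = 0.61 in edgeR's blocked fit). All 3 overlapped between the groups.

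Mgst3, Gstm5, Gstp1 and Sod1 were higher in 6 of 6 pairs, 4 genes where 2.3% of all genes were, and Mt1, Mt2 and Gstm1 lower in 6 of 6, 3 genes where 2.23% were. For Gstm1 the difference in number 2 rounded to 0, with 383 CPM in either library. Mgst3 alone did not overlap between the groups (0.0893% of all genes). The median over the 43 genes was 0.011 without and 0.007 with the block, beside 0.001 and 0 over all genes, and 8 had an unadjusted p under 0.05 in the blocked fit, against 7.64% of all genes.

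The same genes differed far more between replicate numbers than between constructs. In edgeR's test of the 6 numbers with group in the model, 38 of the 43 passed an adjusted p of 0.05 (88.4%), as did 64.3% of all genes. The spread over numbers, taken as the gap between the highest and lowest number's mean log2 CPM, had a median of 0.60 over the 43 genes and 0.42 over all genes. It exceeded 1 in 8 of the 43, and in 13.5% of all genes. The 5 not called were Keap1, Gpx4, Prdx5, Sod1 and Nfs1; Gpx4 was the steadiest, with a gap of 0.05 (adjusted p = 0.96 in edgeR).

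Number 4 was the high one for the RNA of Nfe2l2 and of many, though not all, NRF2 targets, and for other genes of the list. NRF2 activity was not measured. The mean over groups was highest there in 27 of the 43 genes, where 20.6% of all genes had their highest mean, and in 20 of the 43 number 4 was the highest library within each of the 3 groups, as in 5.85% of all genes. Those 20 were Nfe2l2 itself, the inducible Nqo1, Txnrd1 and Srxn1, the whole of glutathione synthesis and recycling (Gclc, Gclm, Gss and Gsr), Slc7a11, Gsta4, Txn1, Prdx1, Sod2, Cat, Ftl1, Ncoa4, Vdac2, Vdac3, Mt1 and Mt2. Because the number was picked after its values were seen, these counts are a description.

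The size of it was largest for heme breakdown and cystine import. Slc7a11 had 346, 304 and 229 CPM in the number 4 libraries of Psmb5, Psmb8 and mSc cultures, and 101, 95.8 and 43.8 in those of number 1, the number with the lowest mean; its means over numbers differed 3.84-fold. Hmox1 had 251, 312 and 160 CPM in number 4 and 54.6, 55.4 and 34.8 in number 1, a 4.92-fold gap, and it was also high in numbers 3 and 6, with 149 and 156 CPM in Psmb5, 123 and 125 in Psmb8 and 180 and 173 in mSc libraries. For Hmox1 the number 4 library was therefore the highest in the 2 overexpression groups and not in mSc cultures.

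Srxn1, sulfiredoxin, which repairs overoxidised peroxiredoxins, had 286, 336 and 204 CPM in the number 4 libraries of Psmb5, Psmb8 and mSc cultures and 88 to 190 in the other 15. Txnrd1 had 294, 323 and 197 CPM in number 4, and Mt2 143, 120 and 128. By contrast Nfe2l2, whose protein is controlled mainly through its stability, had 35, 29.4 and 31.5 CPM in number 4 and 20.3 to 28.3 elsewhere. The 6 smallest p between numbers belonged to Gsta4 (adjusted p = 4.1e-10 in edgeR), Me1 (1.5e-09), Srxn1 (4.8e-09), Mt2 (5.7e-09), Mt1 (6.8e-09) and Gstm5 (1.4e-08).

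**Figure D4:**
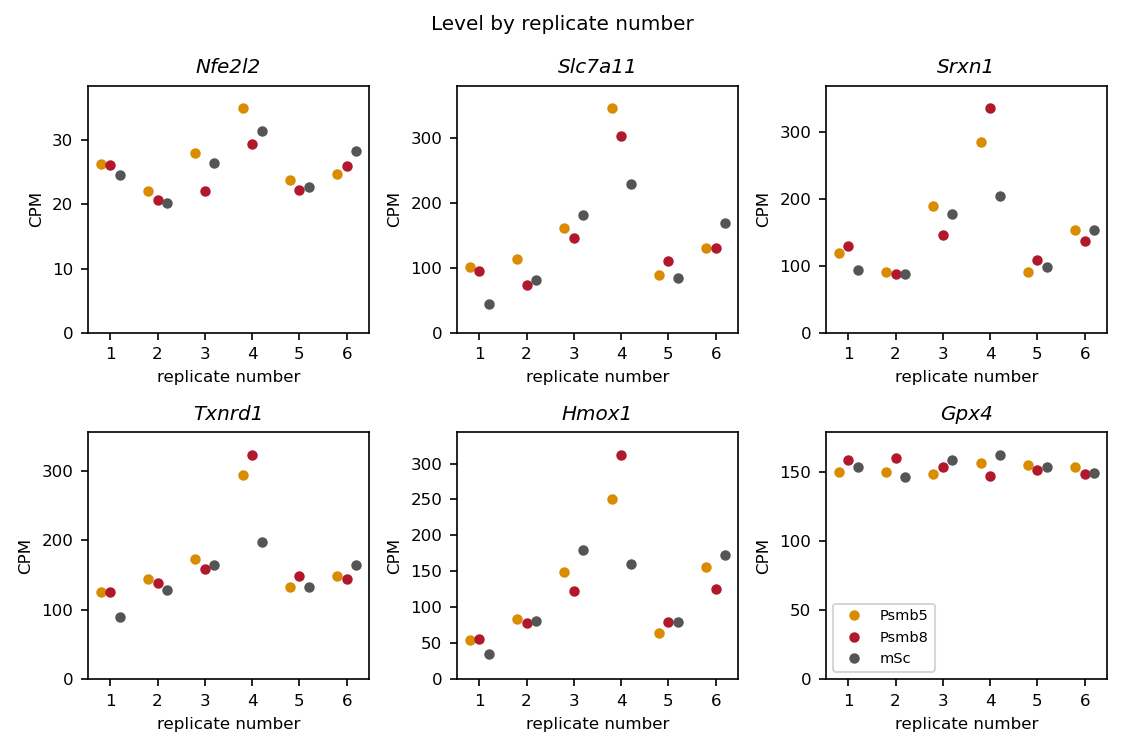
CPM of Nfe2l2, Slc7a11, Srxn1, Txnrd1, Hmox1 and Gpx4 (vertical axes from 0) by replicate number, 1 point per library, coloured by group in the order Psmb5, Psmb8 and mSc. Number 4 is the highest library of each group for Slc7a11, Srxn1 and Txnrd1, with 346, 304 and 229 CPM for Slc7a11. Its lead is smaller in mSc cultures, where the next Slc7a11 value is 182 CPM. Gpx4 stays between 146 and 162 CPM in all 18 libraries.

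Number 1 was the high one for another 7 of the 43 genes (16.3%), a smaller share than the 20.3% of all genes with their highest mean there. The 7 were Me1, a source of NADPH, the transferases Gstm1, Gstm5 and Gstp1, Sod1, Lpcat3 and Slc40a1. Sod1 was not called between numbers (adjusted p = 0.24 in edgeR). Gstm1 had 529 CPM in Psmb5, 495 in Psmb8 and 642 in mSc library 1, and Gstm5 had 44.4, 58 and 57.6. These are the libraries in which astrocyte markers summed to 4580, 4640 and 5440 CPM, and the part of those cells in the values was not tested. Astrocyte markers summed to 2120, 1790 and 1850 CPM in the number 4 libraries of Psmb5, Psmb8 and mSc cultures, below number 1 and highest among numbers 2 to 6 of each group. Their summed cycling markers, 5 of 5 tested, were the highest of each group, at 98.1, 106 and 67.6 CPM, and their oligodendrocyte markers, 9 of 10 tested, summed to 1130, 724 and 838 CPM. Whether any of those cells have a part in the high values of number 4 was not tested.

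Promoter sequence is shown for 3 genes of the number 4 set and for Mgst3, to let matches to the core of the antioxidant response element be read directly. The genes were picked by hand, so a match in the 3 and none in Mgst3 is no result about the number 4 set. Each line is the 150 bases before 1 RefSeq start of the gene on GRCm38.p6, 5′ to 3′ on the gene's own strand. Where RefSeq gave a gene more than 1 start, a start with a match was preferred. Capitals mark a match to the element's core TGACNNNGC, which in the 3 genes lies on the opposite strand. The line of Gclm covers chr3:122245407-122245556 (plus strand), that of Txnrd1 chr10:82859056-82859205 (plus strand), that of Prdx1 chr4:116685449-116685598 (plus strand) and that of Mgst3 chr1:167393842-167393991 (minus strand). GENCODE places the Txnrd1 gene at chr10:82833951-82897712, so its line lies inside the gene. The line of Prdx1 runs past GENCODE's start at 116685544.
Gclm: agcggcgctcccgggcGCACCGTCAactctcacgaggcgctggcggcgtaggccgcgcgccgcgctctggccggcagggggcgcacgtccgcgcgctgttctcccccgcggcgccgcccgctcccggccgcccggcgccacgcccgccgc
Txnrd1: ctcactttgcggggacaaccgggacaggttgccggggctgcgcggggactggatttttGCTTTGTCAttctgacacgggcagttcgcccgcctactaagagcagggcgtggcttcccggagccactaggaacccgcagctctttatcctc
Prdx1: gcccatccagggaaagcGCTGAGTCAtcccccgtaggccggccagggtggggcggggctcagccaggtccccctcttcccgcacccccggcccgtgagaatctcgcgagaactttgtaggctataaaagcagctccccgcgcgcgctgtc
Mgst3: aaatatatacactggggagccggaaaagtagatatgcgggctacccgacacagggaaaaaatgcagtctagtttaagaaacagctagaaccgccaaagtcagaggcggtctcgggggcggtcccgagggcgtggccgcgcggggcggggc

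The Gclm match starts 134 bases before the RefSeq start used, that of Txnrd1 92 and that of Prdx1 133. In Prdx1 it overlaps a match to TGACTCA, the site of AP-1 factors, while the 150 bases of Mgst3 held no match on either strand. In windows of 250 bases before to 50 after the start, on either strand, 12 of 35 genes with a RefSeq window held the core in at least 1 window (34.3%), as did 14% of 27025 genes with a window, and 6 of 35 held TGACTCA (17.1%), as did 5.95%. Over single windows the core stood in 12.4% of 32851 and TGACTCA in 5.2%. The 12 with the core were Nfe2l2, Txnrd1, Srxn1, Me1, Gclm, Gstm5, Mgst1, Prdx1, Sod1, Ncoa4, Nfs1 and Mt2, so that members high in number 4 and members high elsewhere both held it. Others of the number 4 set, such as Gclc and Slc7a11, were not among the 12, and 8 of the 43 genes had no window. A match is a string of letters and not a measured binding site.

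Further genes of these pathways were not called between constructs. Across 8 lists of 122 further genes, 115 were tested, and edgeR called 0 in any of the 3 comparisons, either without or with the block. Of all 15671 genes, 1, 1 and 2 were called without the block in Psmb5 against mSc, Psmb8 against mSc and Psmb8 against Psmb5. With the block 1, 51 and 6 were called. A count of 0 in 115 is thus near the share of all genes and no result about these pathways. The nearest was Oplah, which returns oxoproline to glutamate in the glutathione cycle: it was lower in Psmb8 than in mSc cultures in 6 of 6 pairs, and had -0.26 in log2 fold change (SE 0.06, adjusted p = 0.056 in edgeR's blocked fit). Of the 24 tested glutathione metabolism genes 13 had a positive log2 fold change there, with a median of 0.01.

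No gene of the other lists was called in Psmb8 against mSc cultures either. In NRF2 control, Cul3, the scaffold of the ligase that KEAP1 serves, had the smallest p (log2 fold change 0.11, adjusted p = 0.33 in edgeR's blocked fit). In ferroptosis and lipid peroxidation it was Pebp1, a lipoxygenase partner, lower in 6 of 6 pairs (-0.13, adjusted p = 0.14 in edgeR's blocked fit), and in selenoprotein synthesis it was Eefsec, the selenocysteine elongation factor, higher in 6 of 6 pairs (0.18, adjusted p = 0.21 in edgeR's blocked fit). Taldo1 of the pentose phosphate pathway differed by 0.15 (adjusted p = 0.15), the mitochondrial iron importer Slc25a28 by -0.14 (adjusted p = 0.27) and the thioredoxin inhibitor Txnip by -0.25 (adjusted p = 0.38), all in edgeR's blocked fit.

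In Psmb5 against mSc cultures the leading genes of the same lists were Cul3 (log2 fold change 0.09), Oplah (-0.16), the extracellular dismutase Sod3 (0.64), Slc25a28 (-0.11), the phospholipase Pla2g6 (-0.17), Eefsec (0.11), Idh1 (0.17) and Slc30a1 (-0.05), with adjusted p from edgeR's blocked fit of 0.62 to 0.84. Sod3 averaged 0.982 CPM over the libraries, so its larger fold change rests on few counts. In Psmb8 against Psmb5 cultures the leading genes were Maff (-0.17), Gsto1 (-0.13), Msrb3 (0.32), Pcbp1 (0.09), Pebp1 (-0.12), Sephs2 (0.08), Aldh1l1 (-0.20) and Slc30a1 (0.08), with adjusted p from edgeR's blocked fit of 0.37 to 0.84. Aldh1l1 is also an astrocyte marker.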

How the data were processed

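Raw, whole-number read counts by Ensembl gene ID were deposited by the authors as 1 table, a column for each of the 18 libraries. STAR 2.4, DESeq2 and the builds GRCm39 and mm10 stand in the submitters' processing notes with no role; the counter, its strand setting and the annotation were not given in the sources used here, so reads shared with overlapping genes or copies cannot be checked. Symbols came from a table of Ensembl IDs (42462 of 43629 matched).

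Testing used edgeR 4.0.16 (R 4.3.3): filterByExpr by group left 15671 genes, sizes were scaled by TMM, and a quasi-likelihood test was run on all 18 libraries with group as the factor, adjusted by Benjamini and Hochberg's method over all genes at 0.05. CPM values are TMM-scaled. Over 18 same-numbered pairs of libraries, deviations from the group means correlated with r of 0.45 to 0.73 (mean 0.60), against a mean of -0.12 over 90 other pairs (range -0.54 to 0.65), so the numbers were taken to pair the samples; the number as a block brought the common biological coefficient of variation to 5.94%, against 17.9% without it. No 2 libraries of a group looked like 1 library deposited more than once. The script was tested on simulated data. Alternatives were the block, DESeq2 1.42.0, limma-voom (limma 3.58.1), other scalings and filters, 12 libraries instead of 18, and each library left out; within the blocked fit, all but those that leave numbers out were chosen after seeing the data.

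The members, pathway lists and marker lists were chosen with earlier results of these data known. Named with full statistics are, per comparison, called members and the 6 with the smallest blocked p; with ranges, those and Nfe2l2, Keap1, Slc7a11, Gclc, Gclm, Gpx4, Hmox1, Nqo1, Fth1, Tfrc, Acsl4, Aifm2, Mt1 and Mt2; between numbers, the 6 smallest p; and per pathway list, the gene with the smallest blocked p.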

Additional observations from a re-analysis of the deposited data

Results flagged for a closer look

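Each of the 43 genes was looked at in the 6 libraries of each group for a highest or lowest value standing apart from its neighbour by more than Dixon's limit. Of 129 gene and group combinations 25 stood out, in 17 genes. Normally distributed values would give about 1 in 20, and CPM need not be so distributed. Of the 25, 23 came from the libraries numbered 4 and 2 from those numbered 1. Other genes were not looked at in this way, and 64.3% of all genes differed between numbers. The count is therefore no result particular to these genes. Genes of 1 library are not independent of each other, and the cause was not tested.

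In Psmb5 library 4 the values that stood above the rest of the group were those of NRF2 targets, porins and metallothioneins. Slc7a11 had 346 CPM where the next library had 162, Txnrd1 294 where the next had 173, and Nqo1 6.63 where the next had 2.98. Gclm had 115 CPM, Gsr 60.1, Mt1 293 and Mt2 143. Vdac2 at 118 CPM and Vdac3 at 102 stood out by less, with 105 and 91.9 in the next library.

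In Psmb8 library 4 Slc7a11, Txnrd1, Gclm, Gsr, Mt1 and Mt2 stood out again, with other genes of the list. Hmox1 had 312 CPM where the next library had 125, Srxn1 336 and Slc7a11 304 where the next had 146 of each, and Txnrd1 323 where the next had 158. Glutathione genes followed, with Gclm at 125 CPM, Gss at 24.6, Gsr at 58.5 and Gsta4 at 69.8. Prdx1 had 166 CPM, Cat 97.7, Mt1 245 and Mt2 120.

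In mSc cultures few values stood out. In library 4 they were Mt2 at 128 CPM, where the next library had 80.3, and Sod2 at 109, where the next had 102. In library 1 they were Gstm5, high at 57.6 CPM where the next had 33.7, and Vdac3, low at 76.6 where the next had 87.6.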

How the results depend on the processing

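The number of the 43 genes called was 0 in each comparison without the block, under every other scaling, filter and choice of libraries tried and with limma-voom, except that DESeq2 called 1, Mgst3, in Psmb8 against Psmb5 (adjusted p = 0.032). The replicate block gave 1 in Psmb8 against mSc and 1 in Psmb8 against Psmb5, Mgst3 each time. Within the block, alternatives chosen after seeing the data gave 1 and 1 with limma-voom, with DESeq2's size factors, with library sizes free of Psmb5 and Psmb8 and with a minimum of 5 CPM; DESeq2 gave 1 and 3, and 12 libraries gave 1 and 2, adding Mt1 and with DESeq2 also Mt2. With no low-count filter the block gave 2 in Psmb5 against mSc (Txnrd1 and Slc7a11), 5 in Psmb8 against mSc (Mgst3, Txnrd1, Srxn1, Mt1 and Mt2) and 3 in Psmb8 against Psmb5. In Psmb5 against mSc, Slc7a11 kept its log2 fold change of 0.26. Its adjusted p in edgeR's blocked fit was 2.3e-06 without the filter and 0.76 with it. The cause was not tested. How many of all genes these later alternatives called is not given here, so their counts are no result about the 43. Without numbers 3 and 6 the block called 0 in each.

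With single libraries left out the counts stayed at 0 without the block, and with 1 number left out in the block they ran from 0 to 1 in both Psmb8 comparisons. The medians over the 43 genes ran from -0.038 to 0.052, -0.04 to 0.072 and -0.033 to 0.066 for Psmb5 against mSc, Psmb8 against mSc and Psmb8 against Psmb5 without the block, and from 0.005 to 0.024, 0.021 to 0.04 and -0.006 to 0.017 with it. Without Psmb5 library 4 the medians were -0.038 and 0.066 in its 2 comparisons, and without Psmb8 library 4 -0.04 and -0.033. Between numbers, 29 to 38 genes differed when 1 number was left out. Of 612 fold changes of named genes under an alternative, 570 kept their direction and side of the threshold, 35 passed it and 7 turned. When 1 library at a time was left out without the block, log2 fold changes in Psmb5 against mSc ran from -0.014 to 0.319 for Txnrd1, -0.025 to 0.231 for Gsr, -0.009 to 0.29 for Gsta4 and -0.042 to 0.287 for Mt1, lowest without Psmb5 library 4 and highest without mSc library 4. In Psmb8 against mSc they ran from -0.03 to 0.35 for Txnrd1, -0.321 to 0.014 for Mt1 and -0.423 to -0.009 for Mt2, and in Psmb8 against Psmb5 from -0.012 to 0.26 for Gstm5. With a whole number left out of the blocked fit none of these turned. Nqo1 and Slc40a1 have few counts, which limits their precision.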

Other observations

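The further pathway genes also differed between replicate numbers, with another order of numbers in some lists. Over all genes, 64.3% differed between numbers, 20.6% were highest in number 4 and 20.3% in number 1, and several of the counts here lie near those shares. Of 12 NRF2 control genes 10 passed an adjusted p of 0.05 in edgeR and 6 were highest in number 4. Glutathione metabolism had 19 of 24 past the threshold and 11 highest in number 1, where astrocyte markers were high, and 7 in number 4. Of 15 genes that supply NADPH 13 passed, and of the 15, 8 were highest in number 1 and 5 in number 4. In ferroptosis and lipid peroxidation 15 of 16 passed, and in iron handling 16 of 22, with 9 of the 22 highest in number 4.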
